A study of Mus musculus with 8 samples.

Results

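Peaks of RNA bound by MBD5 and MBD6 were examined in 6 genes that encode nuclear RNA-binding proteins. These were *Pspc1*, *Sfpq* and *Nono*, which form the DBHS family (named after Drosophila behaviour and human splicing), the nuclear matrix gene *Matr3*, and *Ewsr1* and *Taf15* of the FET family. A peak was assigned to a gene when its midpoint lay in the gene body on the same strand. The 6 genes held 56 of the 29555 peaks of the series. Peaks that overlapped by at least 1 bp on the same strand were merged across libraries into sites, and 20 of 12074 sites lay in these genes. In *Pspc1*, *Sfpq* and *Nono*, all 8 sites found in every library started in the same 3 consecutive exons of the family, and at the *Sfpq* exon 7 site the fold enrichment (mean 73.9) ranked 12 among 3566 sites found in every library.

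DBHS proteins share a pair of RNA recognition motifs, a NOPS dimerization domain and a coiled coil, in this order along the protein. They pair with each other as dimers and are core components of paraspeckles, nuclear bodies that assemble on the long non-coding RNA *Neat1*. MATR3 binds RNA and DNA through RNA recognition motifs and zinc fingers. FET proteins carry a low-complexity N-terminal part, an RNA recognition motif and arginine-glycine-rich repeats, and several of them are found in paraspeckles. The study names PSPC1 among the RNA-binding proteins that recruit the dioxygenase TET2.

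RNA crosslinked to protein by UV light and precipitated with it was sequenced (CLIP-seq) in mES cells, a mouse embryonic stem cell line. Flag-tagged human MBD5 or MBD6 was stably overexpressed in these cells after lentiviral delivery, and the cells were grown in medium with serum, LIF and the inhibitors CHIR99021 and PD0325901. The 8 samples form 4 groups of 2, a CLIP and an Input group for Flag-MBD5 and likewise for Flag-MBD6, and the 4 CLIP samples were analysed here. The study's methods give an antibody against Flag, whereas the extraction protocol in the labels names one against MBD6, and cells without a Flag-tagged protein were not analysed here. The peak heights are those of overexpressed human proteins on mouse RNA, and no correction for the level of each transcript was made here. Whether the Input samples served as the background of the deposited peak heights is not stated for each library.

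The 4 peak lists hold 5362 and 5388 peaks for Flag-MBD5 CLIP and 9218 and 9587 for Flag-MBD6 CLIP. The number of reads at each summit, solved from the deposited values, gave estimated totals of 478790 and 500143 reads for the Flag-MBD5 libraries and 983918 and 1111742 for the Flag-MBD6 libraries, a depth ratio of 2.14 between the proteins. At high sites the 2 replicates of each protein differed by no more than the sampling of reads gives (χ² per degree of freedom of 0.496 for MBD5 and 0.414 for MBD6, against 3.74 to 4.39 between the proteins), and at the 11 sites of the 6 genes found in all 4 libraries the values were 0.756 and 0.174. The study's methods call them biological replicates. Each protein was nevertheless counted as 1 sample here, values are given per library and no test over libraries was made. Intervals cover counting error only, and compare these libraries rather than the proteins in general. Those of ratios add the reads of both replicates as independent counts. Of 14 stem cell marker genes, 6, 7, 9 and 10 held a peak in Flag-MBD5 CLIP replicates 1 and 2 and Flag-MBD6 CLIP replicates 1 and 2. *Pou5f1* and *Nanog* held peaks in both Flag-MBD6 libraries only, and no library had a peak in *Klf2*, *Lin28a* or *Utf1*.

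The sequences below show where the DBHS sites lie, since their position in related exons is the main pattern of these genes. The 3 proteins were aligned over 748 columns, 1 for each codon or gap, and were identical at 62.3% of aligned residues for PSPC1 and SFPQ, 64.9% for PSPC1 and NONO and 61.2% for SFPQ and NONO. The 5′ end of a site is that of its highest peak. The sites found in all 4 libraries began between columns 489 and 572, a span of 84 columns or 11.2% of the alignment. In each gene this span lies in 3 consecutive exons. The first is 197 nt long in all 3 genes (exon 4 of *Pspc1*, exon 5 of *Sfpq* and exon 7 of *Nono*). The next is 85 nt long in all 3 genes (exons 5, 6 and 8), and the last is 109 nt in *Pspc1* exon 6, 118 nt in *Sfpq* exon 7 and 103 nt in *Nono* exon 9. Whether sites coincide as closely in other gene families was not examined. Reads were mapped without splicing, so that a read reaching far across an exon junction can go unplaced. How far the exon borders shared by the 3 genes set the positions of the 5′ ends was not tested.

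Stretch A, in the exon of 197 nt, is shown from the codon at which *Pspc1* site 2 and *Sfpq* site 4 both began (codon 273 of *Pspc1*, 481 of *Sfpq*, 268 of *Nono*). The mRNA strand is given 5′ to 3′ from the GENCODE transcript sequences on mm10, and capitals mark bases that are the same in all 3 genes, which are 40 of 66.
Pspc1 stretch A: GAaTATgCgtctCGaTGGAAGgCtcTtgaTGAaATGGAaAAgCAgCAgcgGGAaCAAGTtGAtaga
Sfpq stretch A: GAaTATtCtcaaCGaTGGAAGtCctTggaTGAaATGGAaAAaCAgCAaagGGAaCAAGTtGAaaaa
Nono stretch A: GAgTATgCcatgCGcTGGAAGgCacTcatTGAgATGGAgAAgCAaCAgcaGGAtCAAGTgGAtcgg

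Stretch B starts at the codon that spans the junction into the exon of 85 nt (codon 322 of *Pspc1*, 530 of *Sfpq* and 317 of *Nono*), where *Pspc1* site 3 began. The same base is found in all 3 genes at 42 of 66 positions.
Pspc1 stretch B: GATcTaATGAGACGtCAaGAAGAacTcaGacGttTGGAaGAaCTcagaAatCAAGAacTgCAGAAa
Sfpq stretch B: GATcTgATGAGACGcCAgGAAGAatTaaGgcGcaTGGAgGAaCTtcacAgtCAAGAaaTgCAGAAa
Nono stretch B: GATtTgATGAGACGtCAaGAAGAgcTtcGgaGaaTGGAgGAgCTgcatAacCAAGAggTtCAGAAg

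Stretch C starts at the codon that spans the next junction (codon 350 of *Pspc1*, 558 of *Sfpq* and 345 of *Nono*), where *Pspc1* site 4 and *Sfpq* site 5 began. Here 25 of 39 bases are shared by the 3 genes.
Pspc1 stretch C: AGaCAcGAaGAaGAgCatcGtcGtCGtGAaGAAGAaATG
Sfpq stretch C: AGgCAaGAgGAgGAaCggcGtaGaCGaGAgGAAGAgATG
Nono stretch C: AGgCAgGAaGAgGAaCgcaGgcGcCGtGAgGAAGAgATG

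Over most of these stretches, reads of 1 DBHS gene can be told from those of another by their sequence. The longest run of identical coding bases was 14 nt between *Pspc1* and *Sfpq*, 17 nt between *Pspc1* and *Nono*, which lies in stretch B, and 22 nt between *Sfpq* and *Nono*, of which at most 12 nt lie in any of the stretches. The window of 30 nt from the 5′ end of each site was searched in all annotated transcripts with up to 3 mismatches, and no DBHS site matched another DBHS gene. Since reads of more than 15 nt were kept, the shortest reads in the run of 17 nt cannot be placed between *Pspc1* and *Nono*.

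The 6 genes held 12 peaks in each Flag-MBD5 library and 16 in each Flag-MBD6 library. At least 1 peak was found in 5, 5, 6 and 6 of the 6 genes in Flag-MBD5 CLIP replicates 1 and 2 and Flag-MBD6 CLIP replicates 1 and 2, against 10.1%, 9.9%, 16.2% and 16.5% of 21951 protein-coding genes. Regions present in both libraries of a protein, the criterion of the study's methods, numbered 11 for MBD5 and 12 for MBD6 in these genes and fell in 5 of 6 genes for each protein. Among all protein-coding genes, 7.8% had such a region for MBD5 and 13.8% for MBD6. Of the 20 sites, 11 had a peak in all 4 libraries, which is 55% (95% Wilson interval 34.2 to 74.2), against 29.5% of all 12074 sites. A single library carried 7 of the remaining sites. The DBHS genes had 37 of the 56 peaks and 8 of their 12 sites in all 4 libraries, *Matr3* had 11 peaks and 2 of 3 sites, and *Ewsr1* and *Taf15* together had 8 peaks and 1 of 5 sites. No peak lay on the opposite strand of any of the 6 genes.

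**Figure D1:**
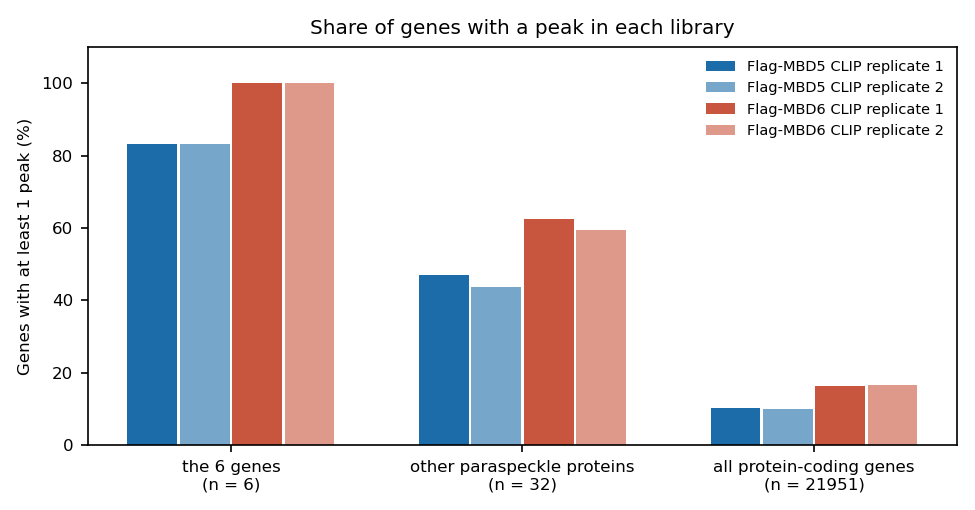
Percentage of genes with at least 1 peak (y axis, from 0) among the 6 genes, 32 other paraspeckle proteins and all 21951 annotated protein-coding genes. Each bar is 1 CLIP library. The bars of the 6 genes, at 83.3% and 100%, stand above those of the other paraspeckle proteins, which run from 43.8% to 62.5%, and those of all genes, which run from 9.9% to 16.5%.

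*Pspc1* lies on the minus strand of chromosome 14. It had 3, 3, 4 and 3 peaks in the 4 libraries, Flag-MBD5 first. Site 2 (chr14:56761745-56761980, exon 4) had a fold enrichment, the MACS2 ratio of signal at the summit to local background, of 7.9 and 17.4 in Flag-MBD5 CLIP and 36.2 and 34.3 in Flag-MBD6 CLIP, with 10, 21, 58 and 59 reads at the summit. Both Flag-MBD6 values lay above both Flag-MBD5 values. Site 3 (chr14:56758514-56758718, exon 5) was the highest of the gene, at 24.7 and 28.4 in Flag-MBD5 CLIP and 58.4 and 54.6 in Flag-MBD6 CLIP, with 30, 35, 89 and 86 reads. It covered the whole exon of 85 nt. Site 4 (chr14:56748765-56748943, exon 6) had values of 10.7, 9.08, 17.6 and 18.6 in the same order, with 13, 11, 30 and 34 reads. Site 1, in exon 1 at codon 68, was found in Flag-MBD6 CLIP replicate 1 alone, with a fold enrichment of 8.12 and 19 reads.

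*Sfpq*, a splicing factor gene on the plus strand of chromosome 4, had the highest peak of the 6 genes in every library. Site 5 (chr4:127026764-127026984) covered all 118 nt of exon 7, with fold enrichments of 76.1 and 47.3 in Flag-MBD5 CLIP and 87.4 and 84.8 in Flag-MBD6 CLIP. The read numbers at its summit were 105, 107, 154 and 159. The Flag-MBD5 replicates thus had nearly the same number of reads, and their fold enrichments differed with a local background rate of 0.392 in one and 1.29 in the other. By best fold enrichment *Sfpq* ranked 9 of 2228, 45 of 2173, 15 of 3558 and 7 of 3629 protein-coding genes with a peak in the 4 libraries. Site 4 (chr4:127025905-127026324) began in exon 5 and also covered all 85 nt of exon 6, and its fold enrichments were 16.9, 17.3, 36.1 and 29.4, with 28, 30, 78 and 73 reads. *Sfpq* therefore had no separate site in the exon of stretch B, which site 4 spans.

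The other *Sfpq* sites were not found in all libraries. Site 1, in exon 1 at codon 149, was found in Flag-MBD6 CLIP replicate 1, with a fold enrichment of 3.77 from 38 reads over a background rate of 9.34. The window of 30 nt from its 5′ end was 66.7% C, against 17.1% over the peaks of the 6 genes. Site 2, in exon 2, was found in 1 library of each protein, at 7.19 in Flag-MBD5 CLIP replicate 1 and 7.77 in Flag-MBD6 CLIP replicate 2. Site 3, in exon 4, was found in Flag-MBD6 CLIP replicate 2 alone, at 10.2 with 24 reads.

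*Nono*, on the plus strand of chromosome X, had the same 3 sites in all 4 libraries and no other peak. Site 1 (chrX:101443371-101443572, exon 7) had fold enrichments of 15.5 and 23.6 in Flag-MBD5 CLIP and 35.4 and 26.7 in Flag-MBD6 CLIP, with 20, 31, 56 and 55 reads. Site 2 (chrX:101444285-101444439, exon 8) had 12.1, 10.5, 15.5 and 10, and site 3 (chrX:101444689-101444884, exon 9) had 9.94, 10.5, 12.4 and 9.92. At sites 2 and 3 the values of the proteins overlapped. The heights fell from the first exon of the series to the last in each library but Flag-MBD5 CLIP replicate 2, where sites 2 and 3 were both at 10.5, whereas the highest site of *Pspc1* lay in the middle exon and that of *Sfpq* in the last. Windows of the *Nono* sites also matched processed pseudogenes with up to 3 mismatches, 5 genes for site 1, 4 for site 2 and 1 for site 3. *Gm8806* matched site 1 without a mismatch, site 2 with 1 and site 3 with 2, and had 1 peak in each library. *Gm5171*, which matched sites 1 and 2 with 2 mismatches each, had 1 peak in replicate 2 of each protein and none in replicate 1. The division of reads between *Nono* and these pseudogenes is uncertain at all 3 sites. The sites of *Pspc1* and *Sfpq* had no such match.

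**Figure D2:**
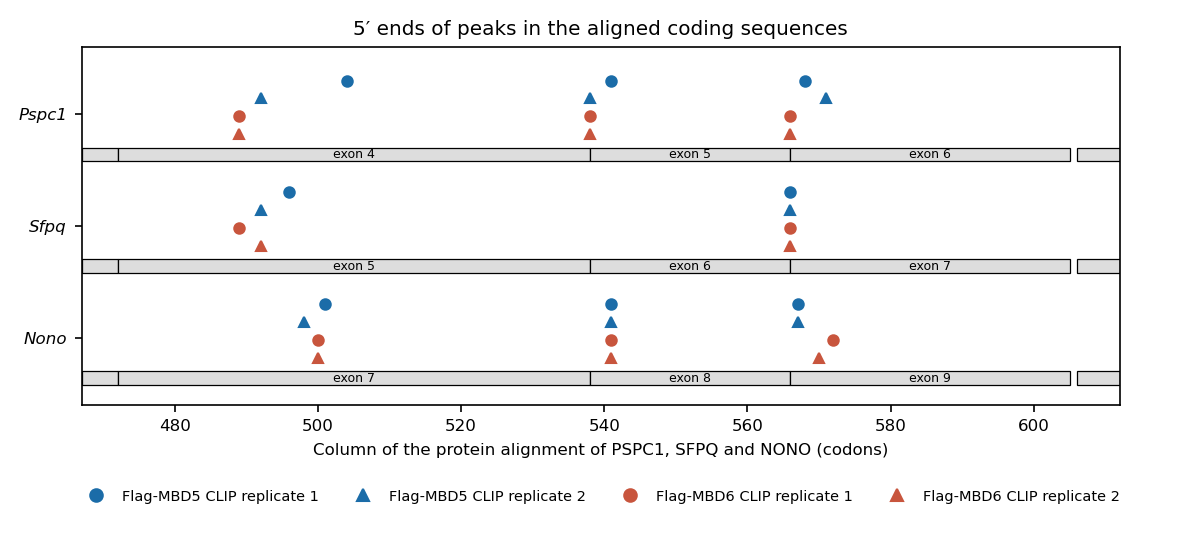
Position of the 5′ end of each peak of *Pspc1*, *Sfpq* and *Nono* (x axis, column of the protein alignment, 1 column per codon) in the part of the alignment that holds the sites found in all 4 libraries. Symbols are peaks of single libraries and grey boxes are exons, whose borders fall at the same columns in the 3 genes. The 5′ ends gather at the start of the exon of 85 nt and of the exon after it, and inside the exon of 197 nt.

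The 5′ ends of the peaks were close between libraries. Over the 11 sites of the 6 genes found in all 4 libraries they spread by 2 to 45 nt, and both Flag-MBD6 libraries had the same 5′ end at 6 sites, against 1 site for the Flag-MBD5 libraries. *Pspc1* site 2 had the widest spread and *Nono* site 2 the narrowest. Shared 5′ ends were not counted over all sites of the series, and the part that the greater depth of the Flag-MBD6 libraries plays was not tested. The 5′ ends of 6 peaks at *Pspc1* site 3 and *Sfpq* site 5 lay 2 to 5 nt before the exon, in the intron. Reads were aligned without splicing and with up to 3 mismatches, and whether these few bases came from unspliced RNA or from the end of the preceding exon was not tested. RNase T1 cuts after G, and a G preceded the 5′ end in 40 of the 50 peaks of the 6 genes that start inside a transcript (80%) and a C in 18%. Among 23574 peaks of the series the shares were 77% and 18.4%. The windows of 30 nt held 36.1% A, 17.1% C, 31.1% G and 15.6% U, against 38.2%, 20.9%, 26% and 14.9% over all peaks.

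The midpoint of 36 of the 56 peaks lay in coding sequence, which is 64.3% (51.2 to 75.5), against 54% of all peaks, and 28.6% lay in introns against 23.5%. The sets are unlike, since the 6 genes are protein-coding. All peaks also include 14.3% in non-coding exons and 3.4% outside genes of their strand, against 1.79% and 0% in the 6 genes. The peaks were at least 150 bp wide since reads were extended to this length, which exceeds several of the exons. At 15 nt from the 5′ end, where a short read lies, 56 of 56 peaks were in coding sequence (95% interval from 93.6), against 79% of all peaks. At this position 13.7% of all peaks lay in non-coding exons and 2.27% outside genes of their strand. The share over peaks of protein-coding genes alone was not computed at either position. Both intervals take the 56 peaks as independent, although they come from 20 sites, and are therefore too narrow. At 15 nt none of the 56 peaks was in an intron or UTR. Of all peaks, 2.13% were in introns, 1.66% in 3′ UTRs and 1.28% in 5′ UTRs there, so such peaks were few in the whole series. The last exons of *Matr3* and *Pspc1*, which hold their 3′ UTRs, are 3456 and 2571 nt long.

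The FET genes had lower peaks. *Ewsr1*, on the minus strand of chromosome 11, had 1 peak in each Flag-MBD5 library and 2 in each Flag-MBD6 library. Its site 3 (chr11:5069942-5070449, exons 16 and 17, codon 569 of 655) was found in all 4 libraries at 4.59 and 7.96 in Flag-MBD5 CLIP and 11.7 and 11.5 in Flag-MBD6 CLIP, with 9, 17, 21 and 23 reads. Sites 1 and 2, in exons 5 and 12, were found in Flag-MBD6 CLIP replicate 1 at 9.25 and in replicate 2 at 6.77. *Taf15*, on the plus strand of chromosome 11, had a single peak per Flag-MBD6 library, at different places, and none in Flag-MBD5 CLIP. These were site 1 (chr11:83485042-83485191, exon 5) at 7.78 and site 2 (chr11:83504901-83505103, exon 15, codon 477 of 557) at 7.69, with 12 reads each. *Taf15* thus had no site that both replicates of a protein shared.

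*Ewsr1* site 3 and *Taf15* site 2 both lie late in the coding sequence, in the part with arginine-glycine-rich repeats, and their sequences are shown for this reason. The capital marks the base before the 5′ end, and the mRNA strand is given 5′ to 3′ from GENCODE transcripts on mm10.
Ewsr1 site 3: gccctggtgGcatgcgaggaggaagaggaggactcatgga
Taf15 site 2: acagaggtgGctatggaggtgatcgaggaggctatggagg
The 30 bases after the capital held 43.3% G in *Ewsr1* and 46.7% G in *Taf15*, where the peaks of the 6 genes had 31.1%. The same G shares were found at *Nono* site 3 (43.3%) and *Sfpq* site 5 (46.7%). At the other FET sites the share was 33.3% (*Ewsr1* site 1), 16.7% (*Ewsr1* site 2) and 20% (*Taf15* site 1). The windows of *Ewsr1* sites 1, 2 and 3 matched 1, 3 and 1 processed pseudogenes with up to 3 mismatches. Of these, *Gm6627*, which matched sites 2 and 3, had 1, 1, 1 and 2 peaks in the 4 libraries. *Gm7962*, which matched sites 1 and 2, and *Gm7517*, which matched site 2, each had 1 peak in each Flag-MBD6 library and none in Flag-MBD5 CLIP, and sites 1 and 2 themselves were found in Flag-MBD6 libraries alone. The division of reads between *Ewsr1* and these pseudogenes is uncertain. Those of *Taf15* matched none.

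**Figure D3:**
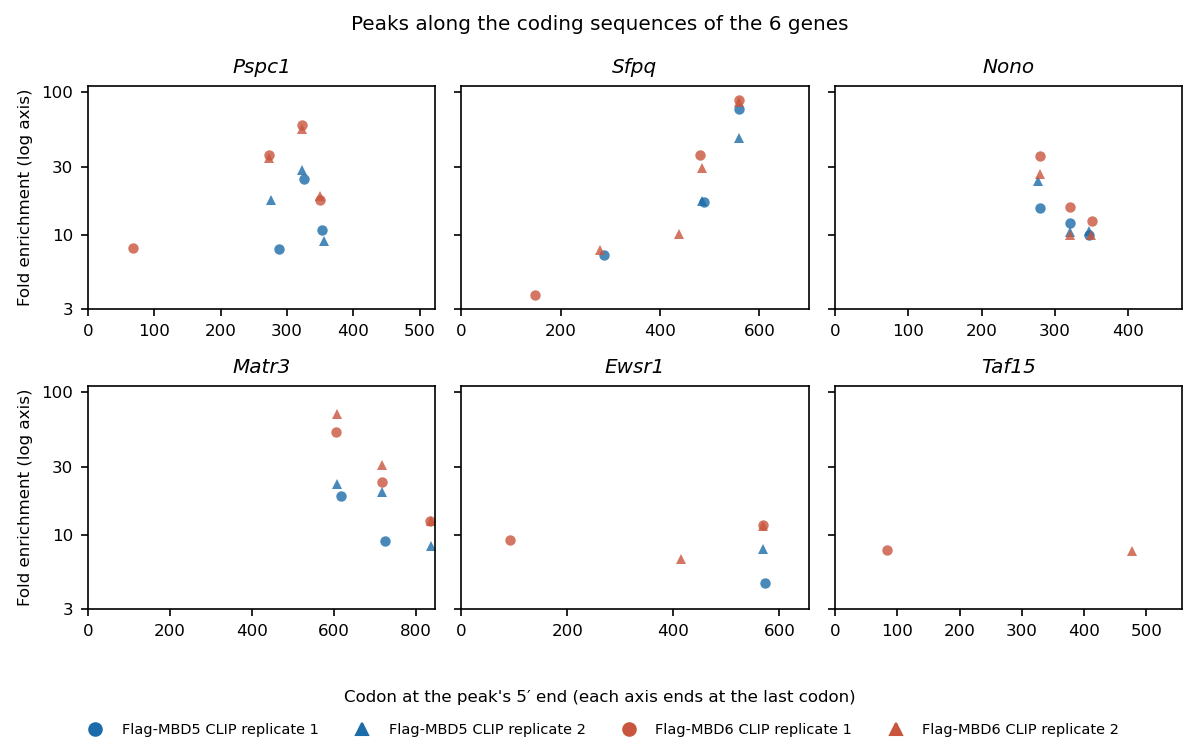
Fold enrichment of each peak (y axis, log scale) against the codon at its 5′ end (x axis, which ends at the last codon of each gene). Colours are proteins and symbols are replicates. Peaks of *Pspc1*, *Sfpq* and *Nono* cluster in the middle to later part of the coding sequence, those of *Matr3* in its last part, and *Taf15* has 1 peak in each Flag-MBD6 library only.

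*Matr3*, on the plus strand of chromosome 18, had 2, 3, 3 and 3 peaks in the 4 libraries, all in the last part of its coding sequence of 846 codons. Site 1 (chr18:35584551-35584956, exon 12, codon 605) had fold enrichments of 18.6 and 22.6 in Flag-MBD5 CLIP and 52.5 and 69.8 in Flag-MBD6 CLIP, with 40, 41, 129 and 117 reads. Each Flag-MBD6 value was above both Flag-MBD5 values. Site 2 (chr18:35587632-35587905, exon 13, codon 716) had 9.06, 19.8, 23.3 and 30.6, with 19, 25, 68 and 63 reads. The Flag-MBD5 replicates differed at site 2 more in fold enrichment than in reads, with background rates of 1.21 and 0.312. Site 3 (chr18:35590389-35590549, exon 15) started between codons 834 and 837, close to the stop codon, and was found in 3 libraries at 8.39 in Flag-MBD5 CLIP replicate 2 and 12.4 in both Flag-MBD6 libraries. Site 1 also lies in the annotated readthrough gene *Gm28285*, and site 2 matched the pseudogene *Matr3-ps2* with 1 mismatch, which had 1 peak, in Flag-MBD6 CLIP replicate 2.

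The proteins were then compared at the 11 sites found in all 4 libraries. Both Flag-MBD6 fold enrichments were above both Flag-MBD5 values at 9 sites, against 55.7% of the 3566 sites found in all 4 libraries in the series, and *Nono* sites 2 and 3 were the exceptions. By its construction the fold enrichment depends on depth, so summit reads were also divided by the estimated totals, which gives depth-scaled reads. Summed over the 11 sites there were 647 reads in the Flag-MBD5 libraries and 1431 in the Flag-MBD6 libraries, a ratio of MBD6 to MBD5 depth-scaled reads of 1.03 (95% exact interval 0.941 to 1.14). The median ratio of all 3566 sites was 0.792, with the middle 50% between 0.62 and 1.03, and relative to this median the summed ratio was 1.3 (1.19 to 1.43). The first interval holds 1 and the other lies above it, so that the size of the difference rests on the scaling.

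Single sites departed from equality both ways. The ratio was highest at *Pspc1* site 2, at 1.76 (1.18 to 2.71), which is at percentile 97.9 of all sites. *Matr3* site 1 had 1.42 (1.1 to 1.85) and site 2 had 1.39 (0.981 to 2). *Pspc1* sites 3 and 4 had 1.26 (0.941 to 1.7) and 1.25 (0.768 to 2.08), and *Sfpq* site 4 had 1.22 (0.893 to 1.68). *Nono* site 1 had 1.02 (0.723 to 1.45). Values below 1 were measured at *Ewsr1* site 3 (0.791, 0.476 to 1.34), *Sfpq* site 5 (0.69, 0.577 to 0.825), *Nono* site 2 (0.685, 0.421 to 1.13) and *Nono* site 3 (0.654, 0.38 to 1.14). The interval lay above 1 at 2 of the 11 sites and below 1 at 1 site, against 4.85% and 33.7% of all sites. Relative to the median of all sites it lay above 1 at 5 sites and below 1 at none, against 15.4% and 16.6% of all sites.

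**Figure D4:**
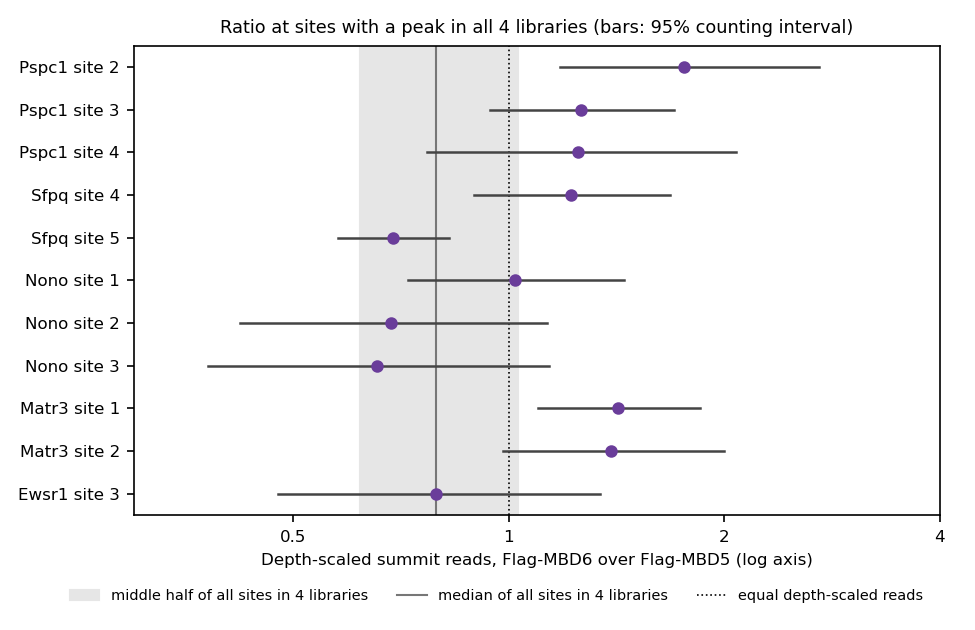
Ratio of Flag-MBD6 to Flag-MBD5 depth-scaled summit reads (x axis, log scale) at the 11 sites found in all 4 libraries. Points are ratios of the summed replicates, bars are 95% counting intervals, the grey band is the middle 50% of 3566 sites (0.62 to 1.03) and the grey line their median (0.792). *Pspc1* site 2 and *Matr3* site 1 lie to the right of 1 with their intervals and *Sfpq* site 5 to the left.

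A comparison of sites in 1 gene needs no scaling, since the depth of a library is shared by both sites. Of 8 such pairs, 1 had an interval that left out 1, against 13.5% of the 4379 pairs of sites found in all 4 libraries within 1 protein-coding gene, so that the count is near that of the series. In this pair, sites 4 and 5 of *Sfpq*, the ratio of MBD6 to MBD5 was 1.76 times as high at site 4 (95% interval 1.23 to 2.55). The site 5 counts were 212 for MBD5 and 313 for MBD6, and those of site 4 were 58 and 151. The intervals of the other 7 pairs included 1, and reached from 0.841 to 2.37 for *Pspc1* sites 2 and 3, from 0.803 to 2.72 for *Nono* sites 1 and 2 and from 0.65 to 1.59 for *Matr3* sites 1 and 2. The depth allows no finer statement for these pairs.

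Other paraspeckle proteins were looked up from a list of 32 genes. At least 1 peak was found in 15, 14, 20 and 19 of them in the 4 libraries, which is 46.9%, 43.8%, 62.5% and 59.4%, with 13 genes in all 4 libraries and 9 in none. The highest were *Cpsf6*, a subunit of a cleavage factor of mRNA 3′ ends, at 15.2, 17.4, 47.6 and 53.2, *Smarca4*, a chromatin remodelling ATPase, at 31.4, 21.5, 34.3 and 33.4, and *Rbmx*, an RNA-binding protein of splicing, at 23.9, 18.2, 23.6 and 22.6. The best *Sfpq* peak was higher than these in each library. *Neat1* itself, the RNA on which paraspeckles assemble, had a single peak per Flag-MBD6 library, at 5.36 and 3.18, and none in Flag-MBD5 CLIP.

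The genes whose summed summit reads per 1000000 estimated reads were most like those of each member over the 4 libraries were sought among 1714 protein-coding genes with a peak in all 4, by the distance in log2. *Pspc1*, with 111, 134, 199 and 161 of these units, was nearest to the Polycomb gene *Suz12*, with 102, 128, 210 and 176, and to *Hmmr*. *Matr3*, with 123, 152, 220 and 180, was nearest to the splicing factor gene *Srsf11*, with 136, 146, 204 and 189, and to the transcription kinase gene *Cdk12*. These patterns were higher in both Flag-MBD6 libraries than in both Flag-MBD5 libraries. *Sfpq*, at 301, 274, 274 and 246, was nearest to the RNA helicase genes *Ddx10*, at 282, 268, 281 and 263, and *Ddx39b*. *Nono*, at 100, 116, 101 and 81.9, was nearest to *Kdm5b*, a histone demethylase gene, at 113, 116, 104 and 79.2, and to *Gas8*. *Ewsr1*, at 18.8, 34, 35.6 and 34.2, was nearest to *Tma7* and *Dppa3*. *Taf15* had no peak in the Flag-MBD5 libraries and was not compared.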

How the data were processed

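The authors quality-filtered and clipped the reads, collapsed identical ones, removed rRNA, aligned the rest to mm10 with bowtie 1.0.0, split strands with samtools 1.16.1 and called peaks per library and strand with MACS2 (version 2; extension 150 bp, genome size 130000000 bp, at most 5 duplicates per position, q under 0.01). Each deposited fold value is the ratio of summit signal to local background, the deposited −log10 values are those of the p-value and q-value of the peak, the deposited score is a rounded multiple of −log10 q, and the deposited summit is another column, a position within the peak.

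Summit reads and background rates were solved from fold and −log10 p, for 100% of peaks, and totals were estimated from the lowest rate per strand, which is no sequencing depth. The solution, the merging and the transcript positions were tested on simulated data. Genes, exons and sequences came from GENCODE release M21. Proteins translated from the transcripts were aligned with MAFFT 7.526. The alignment, the pairs of sites in 1 gene and the search for matching transcripts were added after the peaks had been seen. The members and lists were chosen with earlier results of these data known. All 6 genes were named whatever their values, of the other paraspeckle proteins the 3 with the highest mean best fold, with *Neat1*, and for each member the 2 nearest genes. 1 other gene of this rule is not reported here. Share intervals are Wilson intervals, ratio intervals exact, both at 95%. Those of peak shares count each peak as independent, also where several libraries share a site. Python 3.11.15 and scipy 1.17.1 were used. Samples were grouped by their labels.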

Additional observations from a re-analysis of the deposited data

How the results depend on the processing

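Peaks, sites, reproducible regions, the share of sites in all 4 libraries and the coding share were recomputed under a stricter q, a fold of at least 4, equal numbers of peaks, a reciprocal overlap of 50%, another position in the peak and either strand. Of 41 recomputed values 39 stayed within 1.5 times the reported count or within its interval. The coding share moved from 64.3% to 100% when the position 15 nt from the 5′ end was used. Of the 20 peaks that moved, 16 had their midpoint in an intron, 3, all of *Matr3* site 3, in the 3′ UTR and 1 in a non-coding exon. The ratio of the proteins over the 11 sites moved from 1.03 to 1.3 when scaled by the median of all sites. Leaving out each of the 4 libraries gave 13.3 to 14.7 peaks per library and 16 to 20 sites. All remaining libraries shared 55% to 68.8% of the sites, and 61.4% to 67.5% of the peaks lay in coding sequence. Reproducible regions could not be recounted in this way, since a protein that lost a library had 1 left. The regions of that library alone numbered 12 for MBD5 and 16 for MBD6. No paired analysis was possible because the reported values come from no test. Leaving out a test over libraries was a choice. With 2 libraries per protein an exact permutation test cannot reach the usual threshold, and the replicates differed by less than sampling noise. The 7 sites found in 1 library had 12 to 38 summit reads there, and the lowest peak of these genes in a Flag-MBD5 library had 9, so that a missing peak in the shallower libraries does not show a missing site. All 7 were found in a Flag-MBD6 library and also lacked a peak in the other Flag-MBD6 replicate.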
